A study of Mus musculus with 8 samples.

Results

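The miR-15, miR-16 and miR-195 family is a group of microRNAs that share a seed, the short stretch near the 5′ end that pairs with target messages. Its 10 members were chosen by name among the 1881 mouse microRNAs of the array: the guide strands mmu-miR-15a-5p, mmu-miR-15b-5p, mmu-miR-16-5p, mmu-miR-195a-5p, mmu-miR-497a-5p and mmu-miR-322-5p, and the passenger strands mmu-miR-15a-3p, mmu-miR-15b-3p, mmu-miR-16-1-3p and mmu-miR-16-2-3p, written below without the mouse prefix. In the kidney RNA studied here, the 6 guide strands were above background on every array and the 4 passenger strands on none. None of the 6 guides passed the test between Akita and control kidneys, while the levels of miR-15a-5p did not overlap between the groups, being 1.21-fold lower in Akita. Of all 285 microRNAs tested, 42 passed the test (14.7%), and the levels of 65 did not overlap (22.8%).

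The microRNAs were measured in kidneys of male Akita mice and of male control mice, with 4 samples in each group, 1 one-colour Agilent array per sample, and total RNA labelled with Cy3. The strain is given as C57BL/6-Ins2Akita/J for the Akita samples and C57BL/6J for the controls, which the sample titles call Mock. Every sample carries the age 36, with no unit. The Akita allele is a dominant, inherited change in Ins2, an insulin gene, and the misfolded proinsulin it encodes damages pancreatic beta cells and leads to diabetes. No treatment is named for either group. The labels do not say that each sample came from a separate mouse, so the p-values measure only the spread between these samples, which may be technical.

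MicroRNAs guide the Argonaute protein to messages that contain a match to the seed, and the message is then repressed. Members of the miR-15 family are known to repress cyclins D and E and the kinase Cdk6, so that they slow the passage of cells through the cycle. They are also known to repress the kinases Chek1 and Wee1 and the survival gene Bcl2. Most cells of the adult kidney divide rarely, and enlargement of tubule cells that do not divide is a known feature of the kidney in diabetes.

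The mature sequences of the guide strands, from RefSeq on the mouse build GRCm38.p6, are shown because the shared seed defines the family. Each is written 5′ to 3′, with the seed (bases 2 to 8) in capitals.
miR-15a-5p: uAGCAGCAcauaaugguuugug
miR-15b-5p: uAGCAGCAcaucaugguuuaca
miR-16-5p: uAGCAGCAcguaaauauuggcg
miR-195a-5p: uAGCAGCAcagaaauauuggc
miR-497a-5p: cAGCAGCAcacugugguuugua
miR-322-5p: cAGCAGCAauucauguuuugga
The seed was the same in all 6 guides, and a message site that pairs with it fully would read UGCUGCU. Downstream of the seed the guides differed. Counting from base 1 at the 5′ end, miR-15a-5p and miR-15b-5p differed by A12C, G20A, U21C and G22A, with the base of miR-15a-5p written first. MiR-16-5p and miR-195a-5p were identical at 19 of 21 compared bases and differed by G10A and U11G, with the base of miR-16-5p first.

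The passenger strands, which come from the other side of the same hairpins, are shown because their seeds differ from that of the guides and from one another. Capitals again mark bases 2 to 8.
miR-15a-3p: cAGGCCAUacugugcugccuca
miR-15b-3p: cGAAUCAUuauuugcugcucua
miR-16-1-3p: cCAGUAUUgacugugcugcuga
miR-16-2-3p: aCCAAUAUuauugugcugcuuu
The 4 passenger strands carried 4 distinct seeds, and 0 of them had the seed of the guides. All 10 member names were found in the RefSeq table. Among its 1679 mature names, 10 had the guide seed: the 6 guides and miR-195b, miR-6342, miR-6353 and miR-6419. Those other 4 were on the array, and none was above background on any array.

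The guides come from 4 loci. MiR-15a-5p lies at chr14:61632075-61632096 on the minus strand, and together with the first copy of miR-16-5p it spans 161 bases within the non-coding gene Dleu2. MiR-15b-5p lies at chr3:69009775-69009796 on the plus strand, and with the second copy of miR-16-5p it spans 165 bases within Smc4, which encodes a condensin subunit. The copies of miR-16-5p, at chr14:61631936-61631957 and chr3:69009918-69009939, have the same mature sequence, so the array cannot tell apart which locus the signal came from. MiR-497a-5p at chr11:70234730-70234751 and miR-195a-5p at chr11:70235062-70235082, both on the plus strand, span 353 bases, and no gene of the annotation spans the pair. MiR-322-5p lies at chrX:53054306-53054327 on the minus strand, beside miR-503-5p, within the non-coding gene C430049B03Rik. It is the mouse counterpart of human miR-424.

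Because the guides are alike, the probes bear on how well the array separates them. A probe for each of 4 closely related guides is shown, as DNA in the files' orientation, with capitals at the bases that lie opposite a base differing from the nearest other guide.
miR-15a-5p probe: CACaaaccatTatgtgctgcta
miR-15b-5p probe: TGTaaaccatGatgtgctgc
miR-16-5p probe: CgccaatatttACgtgct
miR-195a-5p probe: gccaatatttCTgtgctgc
Each guide had 2 probes of 17 to 22 bases. The closest case was the pair of miR-195a-5p probes, which differed from miR-16-5p at 2 bases. The miR-16-5p probes differed from miR-195a-5p at 3 bases, counting base 22, which miR-195a-5p lacks. Binding of one guide to the probe of another was not tested. For each of the 6 guides both probes gave a difference between the groups of the same sign, and the largest gap between them was 0.034 on the log2 scale. The probes of a guide are shortened forms of one sequence, so they are no independent check.

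Signals are log2 probe sums after scaling, in which the 75th percentile of an array, taken over 451 probes measured above background on all arrays, served as its divisor, and a difference is Akita minus control. The Akita arrays were dimmer before this step: the 75th percentile was 506.7 ± 10.3 (SD, n = 4) in the controls and 420.8 ± 35.2 (SD, n = 4) in Akita, 17.0% lower (exact two-sided permutation p = 0.0286, the smallest 4 against 4 can give). The controls lay in row 1 of the slide and the Akita samples in row 2, so the row of the slide cannot be told apart from the group. Of 285 microRNAs tested with limma, 42 passed an adjusted p of 0.05 (14.7%), with 24 higher (8.42%) and 18 lower (6.32%) in Akita. All 7 kidney markers tested were above background on every array and 0 passed the test, their mean lying between 10.96 and 11.17 in the controls and between 10.93 and 11.23 in Akita. Of 6 leukocyte markers, 5 fell, and their mean ran from 6.93 to 7.12 in the controls and from 6.41 to 6.63 in Akita. The erythrocyte marker miR-451a read 6.44, 8.60, 10.23 and 7.08 in the controls and 9.31, 9.24, 9.59 and 9.18 in Akita and did not pass the test; miR-144-3p was above background on 1 control and 2 Akita arrays, and miR-486a-5p on 0. Of 7 markers of liver, muscle, brain and islets, 5 were above background on no array. The liver marker miR-122-5p was above background on 3 control and 2 Akita arrays, and the muscle marker miR-1a-3p on 3 and 3. Neither was tested. The part of the leukocyte and erythrocyte markers in the results below was not tested. In RNA of whole tissue, fewer cells of a type and less of a microRNA per cell cannot be told apart.

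mmu-miR-15a-5p, the guide encoded in Dleu2 and known for its loss in chronic lymphocytic leukaemia, showed the largest difference among the guides under the scaling used here. With the 75th percentile over all probes miR-15b-5p differed more (0.21 against -0.18), as did miR-497a-5p with outlier spots kept (0.61). The log2 signal of miR-15a-5p was 11.21, 11.34, 11.27 and 11.26 in controls 1 to 4, and 11.13, 10.77, 11.01 and 11.06 in Akita samples 1 to 4. Every Akita sample lay under every control, with Akita 2 the lowest. The means were 11.27 ± 0.05 and 10.99 ± 0.15 (SD, n = 4 each), a difference of -0.28 ± 0.09 (SE, 95% interval -0.47 to -0.08). By limma the unadjusted p was 0.0104 and the adjusted p 0.059, so it did not pass the threshold of 0.05. It was the only guide with groups that did not overlap, which held for 65 of the 285 microRNAs tested (22.8%), 26 of them lower in Akita (9.12%). It was also the only guide with an unadjusted limma p under 0.05, as had 97 of all tested (34.0%).

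The difference of miR-15a-5p was negative under all 22 alternatives and passed the test under 5 of them. It was -0.55 without scaling and -0.51 with scaling by the labelling spike-ins, with adjusted limma p of 0.0031 and 0.0036, and both settings leave the dimmer Akita arrays dimmer. It was -0.28 with normexp background correction, -0.31 in the deposited value table and -0.30 with outlier spots kept, with adjusted p of 0.019, 0.038 and 0.042. With the 75th percentile taken over all probes it was -0.18 ± 0.17 (SE), with an adjusted p of 0.53. Leaving out each sample in turn gave -0.32 to -0.20, with adjusted p of 0.067 to 0.14.

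mmu-miR-16-5p, the partner of miR-15a-5p in the Dleu2 locus and of miR-15b-5p in the Smc4 locus, represses much the same messages. Its log2 signal was 11.14, 11.25, 11.26 and 11.21 in the controls and 11.13, 10.83, 11.08 and 11.19 in Akita. Akita 2 was again the lowest sample, and Akita 4 lay within the control range. The difference was -0.16 ± 0.09 (SE, 95% interval -0.35 to 0.04), with an adjusted p of 0.23 by limma. Without Akita 2 it was -0.08.

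mmu-miR-15b-5p, the guide with 18 of 22 bases in common with miR-15a-5p, was the only guide with a difference above 0. Its log2 signal was 9.03, 9.18, 9.27 and 9.13 in the controls and 9.26, 9.13, 9.19 and 9.48 in Akita. The groups overlapped, with Akita 4 above all other samples. The difference was 0.11 ± 0.09 (SE, 95% interval -0.10 to 0.32), with an adjusted p of 0.40 by limma, and it was -0.16 without scaling, -0.12 with the spike-ins and -0.01 with quantile normalization. Without Akita 4 it was 0.04.

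MiR-195a-5p and miR-497a-5p are made from one locus and are known from muscle and heart as brakes on cell division after birth. The log2 signal of miR-195a-5p was 9.79, 9.91, 9.89 and 9.93 in the controls and 9.79, 9.73, 9.79 and 9.996 in Akita. That of miR-497a-5p was 9.56, 9.66, 9.59 and 9.63 in the controls and 9.57, 9.54, 9.45 and 9.75 in Akita. In both, Akita 4 was the highest of all samples and the groups overlapped. The difference of miR-195a-5p was -0.06 ± 0.08 (SE, 95% interval -0.23 to 0.12, with an adjusted p of 0.63 by limma). That of miR-497a-5p was -0.03 ± 0.08 (SE, 95% interval -0.20 to 0.14, with an adjusted p of 0.80 by limma). Leaving out 1 Akita sample moved both: without Akita 4 they were -0.11 and -0.09, without Akita 2 that of miR-195a-5p was -0.02, and without Akita 3 that of miR-497a-5p was 0.01.

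MiR-322-5p is encoded on the X chromosome beside miR-503-5p and is known to act on Cdk6 and on cyclins. Its log2 signal was 8.91, 9.07, 8.98 and 9.01 in the controls and 9.09, 8.73, 8.99 and 8.95 in Akita. Akita 1 was above every control and Akita 2 was below every control. The difference was -0.05 ± 0.09 (SE, 95% interval -0.25 to 0.14, with an adjusted p of 0.68 by limma). Without Akita 2 it was 0.02, and without Akita 1 it was -0.10.

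**Figure D1:**
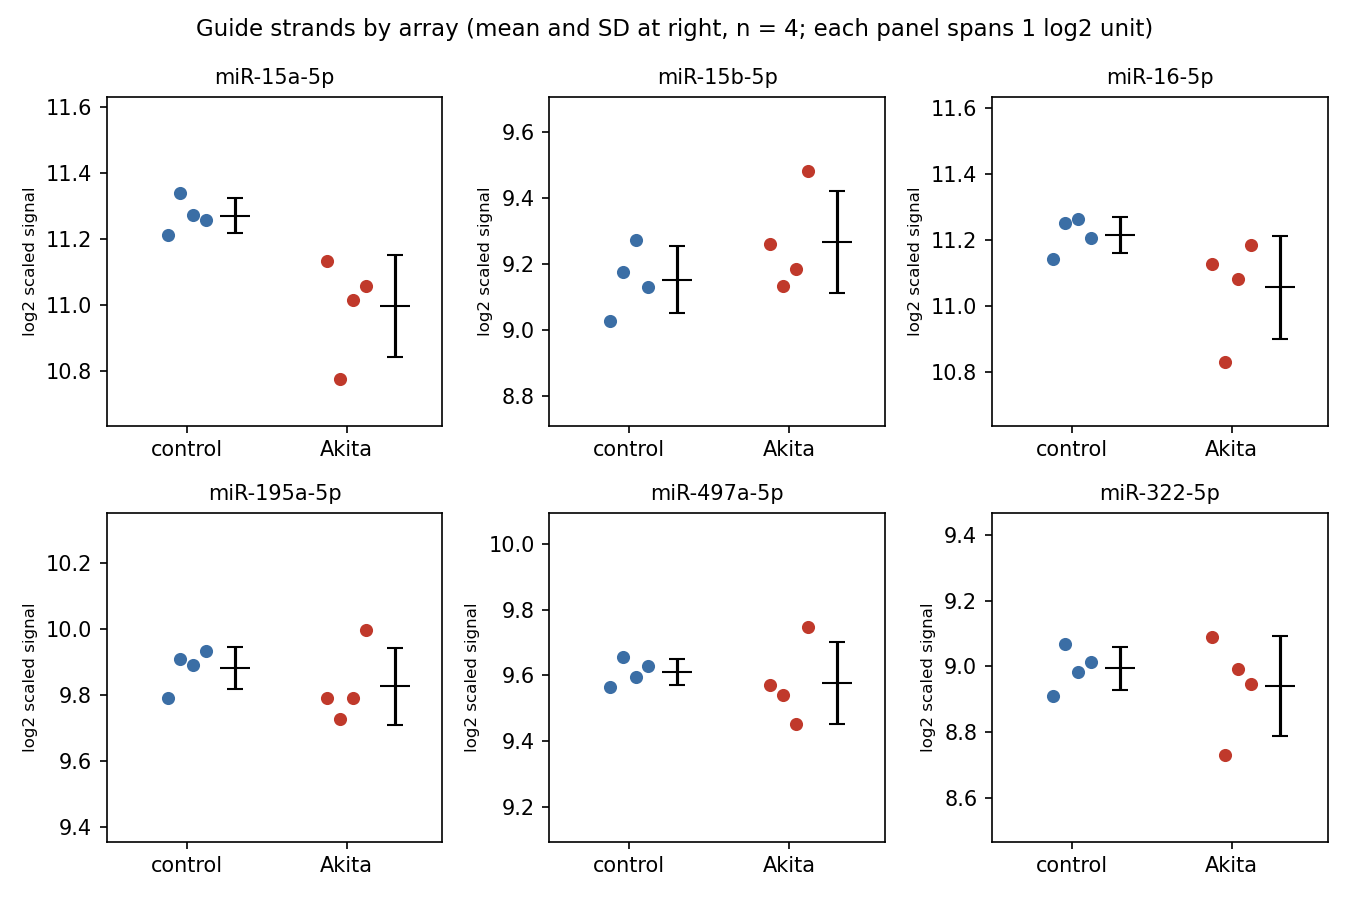
Log2 scaled signal of the 6 guide strands on each array, with controls in blue and Akita in red; the black bars give the mean and SD of 4 samples, and every panel spans 1 log2 unit. The groups do not overlap for miR-15a-5p (11.27 ± 0.05 against 10.99 ± 0.15) and overlap for the other guides.

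Taking the 6 guides as a list, 0 rose and 0 fell, beside 14.7% of all microRNAs tested. Their median difference was -0.06, with a range from -0.28 to 0.11, and the median over all tested was 0.06. The Akita samples varied more than the controls for each of the 6 guides, with an SD 1.52 to 3.07 times that of the controls. The SD was larger in Akita for 196 of the 285 microRNAs tested (68.8%). The difference between the spreads was not tested.

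The 4 passenger strands are the strands usually discarded when Argonaute is loaded. They were covered by 14 probes of 12 to 22 bases, and 0 of these were above background on any array. Their scaled signals, from -3.39 to 4.77, lay under the floor of 23.65, whereas the guide probes read 185.2 to 1721. The passenger strands were therefore at the floor in both groups and were not tested; levels under the floor have no order.

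A difference between guides within an array does not depend on a factor that scales the whole array, since the factor cancels. Over the 15 pairs of guides, 6 differences did not overlap between the groups, each with an exact two-sided permutation p of 0.0286, the smallest that 4 against 4 can give. Adjusted over the 15 pairs this p was 0.071, so 0 pairs passed 0.05. At least 9 pairs would have had to reach this smallest p for any to pass. All 6 pairs held miR-15a-5p or miR-15b-5p, and a difference within an array shows unequal change, not which guide changed. The 15 pairs reuse the same 6 guides and are not independent. The share of such pairs among all microRNAs was not computed. Of single microRNAs, 65 of the 285 tested did not overlap (22.8%), which is another measure and no background for the pairs.

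The widest gap was that between miR-15a-5p and miR-15b-5p. The log2 difference between them was 2.18, 2.17, 2.00 and 2.12 in controls 1 to 4, and 1.87, 1.64, 1.83 and 1.57 in Akita samples 1 to 4. All Akita values lay under all control values, with Akita 4 and Akita 2 the lowest. The mean went from 2.12 ± 0.08 to 1.73 ± 0.14 (SD, n = 4 each), a shift of -0.39, which makes the ratio of miR-15a-5p to miR-15b-5p signal 1.31-fold lower in Akita. The mean is a ratio of probe signals and not of molecules.

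MiR-15a-5p was also lower relative to 3 further guides. Against miR-16-5p, the difference was 0.07, 0.09, 0.01 and 0.05 in the controls and 0.01, -0.06, -0.07 and -0.13 in Akita, a shift of -0.12, with control 3 and Akita 1 close to each other but not overlapping. Against miR-322-5p, it was 2.30, 2.27, 2.29 and 2.24 in the controls and 2.05, 2.04, 2.02 and 2.11 in Akita, a shift of -0.22. The latter groups were each tight, with SDs of 0.03 and 0.04. Against miR-497a-5p the shift was -0.24, and against miR-195a-5p it was -0.22, where Akita 1 reached into the control range (exact two-sided permutation p = 0.0571 with n = 4 each, adjusted p = 0.107).

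Relative to 2 guides other than miR-15a-5p, miR-15b-5p was higher in every Akita sample than in any control. Against miR-16-5p, with which it shares the Smc4 locus, the difference was -2.11, -2.08, -1.99 and -2.07 in the controls and -1.87, -1.70, -1.90 and -1.70 in Akita, a shift of 0.27. Against miR-195a-5p, it was -0.76, -0.73, -0.62 and -0.80 in the controls and -0.53, -0.59, -0.60 and -0.51 in Akita, a shift of 0.17. In neither did the groups overlap, although against miR-195a-5p control 3 lay close to Akita 3. Its shift was of like size against miR-322-5p (0.17, adjusted p = 0.23) and miR-497a-5p (0.15, adjusted p = 0.107), by the exact two-sided permutation test with n = 4 each, and there the groups overlapped.

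Among miR-195a-5p, miR-497a-5p and miR-322-5p the within-array differences moved by -0.02 to 0.02. The locus partners miR-195a-5p and miR-497a-5p differed by 0.23, 0.25, 0.30 and 0.31 in the controls and 0.22, 0.19, 0.34 and 0.25 in Akita, a shift of -0.02 (exact two-sided permutation, adjusted p = 0.63, n = 4 each). These ranges overlapped almost wholly. MiR-497a-5p and miR-322-5p differed by 0.65, 0.59, 0.61 and 0.61 in the controls, but the Akita samples lay to either side, at 0.48 and 0.46 in Akita 1 and 3 and at 0.81 and 0.80 in Akita 2 and 4.

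**Figure D2:**
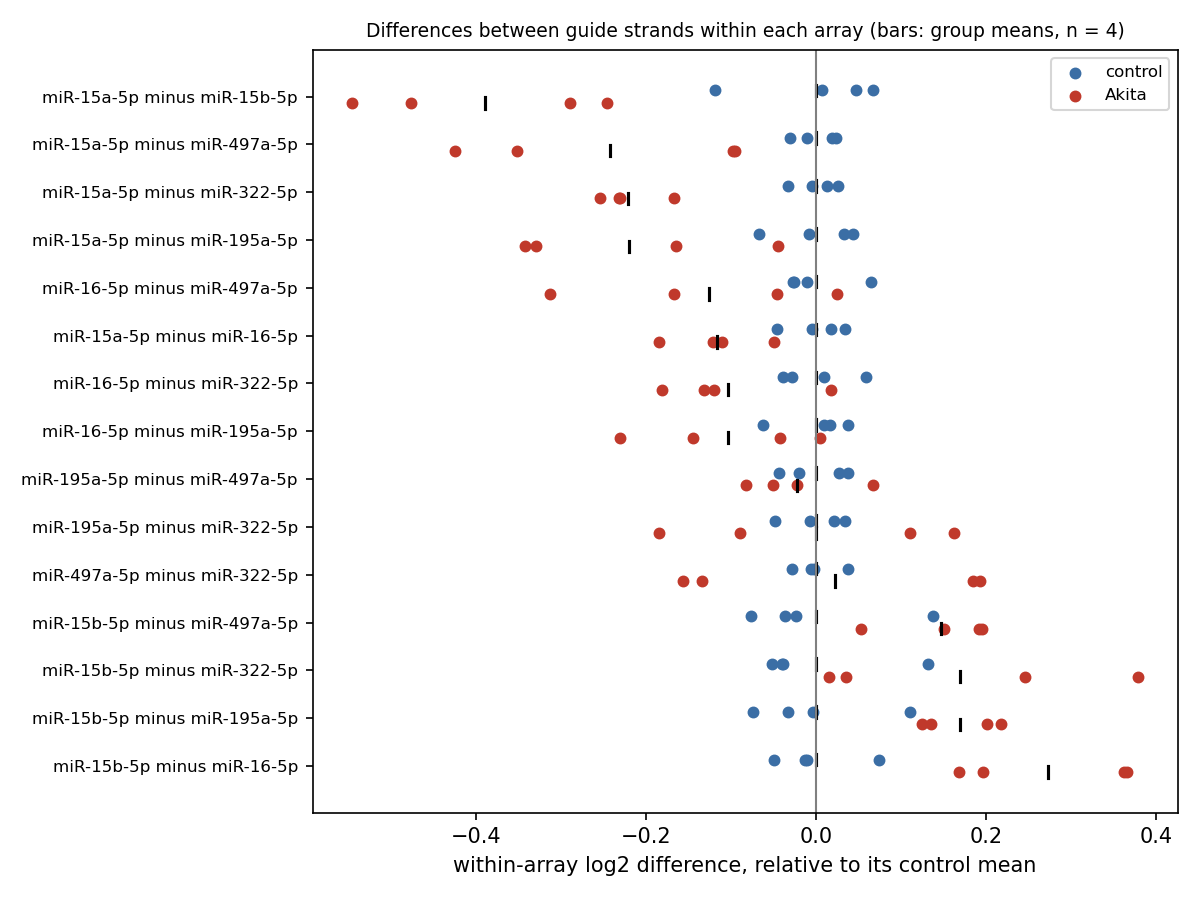
Within-array log2 difference of each of the 15 pairs of guides, relative to its control mean, with 4 control arrays in blue, 4 Akita arrays in red and black bars at the group means. The largest shifts are -0.39 for miR-15a-5p minus miR-15b-5p and 0.27 for miR-15b-5p minus miR-16-5p.

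Levels between arrays, in contrast, moved with the factor chosen for each array. Quantile normalization is no such factor and also moved the guides against each other. With it, the difference of miR-16-5p went from -0.16 to -0.03 and that of miR-322-5p from -0.05 to -0.17. Without scaling and with the spike-ins, 5 of the 6 guides passed the test as lower, all but miR-15b-5p, as did 104 and 94 of the 285 microRNAs tested. With the 75th percentile over all probes, the differences of miR-195a-5p, miR-497a-5p and miR-322-5p turned to 0.04, 0.06 and 0.04. The median of all microRNAs tested was -0.21 without scaling, -0.18 with the spike-ins and 0.16 with all probes. The guide median lay 0.12 under it in each case, which a single factor per array fixes. Where the method is no such factor, it lay 0.09 under it (quantile) and 0.17 under it (normexp).

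**Figure D3:**
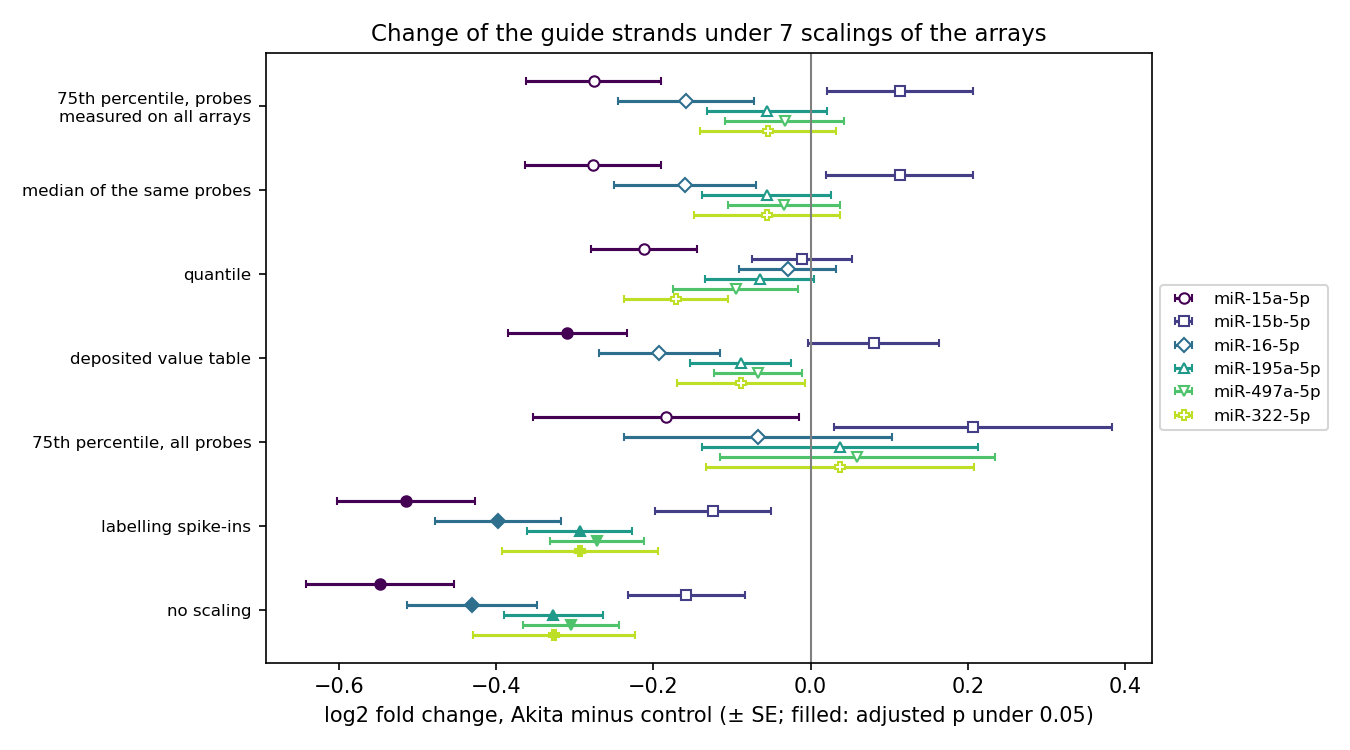
Log2 difference (Akita minus control, ± SE) of the 6 guides under 7 scalings of the arrays; filled symbols passed an adjusted limma p of 0.05. MiR-15a-5p is the lowest guide in every row and miR-15b-5p the highest. The whole family shifts together where rows differ by a factor per array, but not in the row of quantile normalization.

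Across the 8 arrays, miR-15a-5p and miR-16-5p varied together (Pearson r = 0.93), as did miR-195a-5p and miR-497a-5p (r = 0.84). The guides miR-15b-5p and miR-16-5p, also of one locus, had r = 0.27, and miR-15a-5p and miR-15b-5p had r = -0.08. Some guides of different loci were nearly as alike as locus partners. MiR-322-5p had r = 0.79 with miR-16-5p and r = 0.76 with miR-15a-5p, but r = 0.19 with miR-497a-5p. For miR-16-5p and miR-195a-5p, r was 0.74. These values describe 8 arrays that share their scaling factors and that fall into 2 groups, so they carry no p. Outside the family, the microRNAs most like the mean of the 6 guides over the 8 arrays were miR-130a-3p (r = 0.97), miR-26a-5p (r = 0.97), miR-101c (r = 0.97), let-7c-5p (r = 0.96) and let-7b-5p (r = 0.96). None of these 5 passed the test, their differences lying between -0.14 and -0.04.

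The other microRNAs of the same loci were almost all below background. Of 16 arms and neighbours on the array, 15 were above background on no array, among them both arms of miR-503, miR-351 and miR-542. MiR-503-5p, whose seed AGCAGCG has 6 bases in common with the guide seed, was one of these. The single one tested, miR-450a-5p, was above background on 4 control and 3 Akita arrays and differed by -0.09, which did not pass the test.

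Of 26 other microRNAs known to act on the cell cycle, 25 were on the array and 20 were tested; 4 rose and 2 fell, beside 8.42% and 6.32% of all tested, with a median difference of -0.05. The list was not compared with the family by a test. MiR-34a-5p, a p53 target that represses cyclins and Cdk6, read 10.05, 10.25, 10.05 and 10.15 in the controls and 11.55, 11.23, 11.37 and 11.58 in Akita, a rise of 1.31 with an adjusted p of 5.4e-05 by limma. Its groups lay nearly a log2 unit apart. Its relative miR-34b-5p rose by 0.35, and miR-221-3p and miR-222-3p, which repress the cyclin kinase inhibitor p27, rose by 0.33 and 0.28. MiR-92a-3p and miR-19b-3p fell by 0.36 and 0.28. MiR-34a-5p passed the test under all 22 alternatives, with a rise of 1.04 to 1.40, and miR-92a-3p under 20. MiR-34b-5p passed under 17, miR-19b-3p under 10, and miR-221-3p and miR-222-3p under 9 each. Without scaling, the differences of miR-34b-5p, miR-221-3p and miR-222-3p were 0.07, 0.06 and 0.01, and those of miR-92a-3p and miR-19b-3p were -0.63 and -0.55. With the spike-ins they were 0.11, 0.09 and 0.05 for the former and -0.60 and -0.51 for the latter. The number of the list that fell was 15 without scaling or with the spike-ins and 0 with the percentile over all probes. Of all 285 microRNAs tested, 104 fell without scaling, 94 with the spike-ins and 4 with the percentile over all probes.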

How the data were processed

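Each deposited scanner file holds linear spot intensities. Per the file headers, the authors used Agilent Feature Extraction 12.0.3.1, and its background subtraction can make an intensity negative. The authors' deposited value table holds a ratio for each microRNA and array, equal to the extracted total signal divided by a factor per array and one per microRNA; the origin of these factors is not stated in the sources used. It served as an alternative.

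Control spots and outlier-marked spots (2.03% to 3.02%) were left out, spots of a probe were averaged, and signals were divided by the array's 75th percentile over 451 probes. Probes of a microRNA were summed, set to a floor of 23.65 (4.56 in log2) where lower, and log2 was taken. MicroRNAs above background on all 4 arrays of a group were tested, 285 of 1881, using R 4.3.3 and limma 3.58.1 (two-sided moderated test, Benjamini-Hochberg over the 285, threshold 0.05). For pairs of guides, an exact permutation test (two-sided, 35 splits) was adjusted over 15 pairs. The fit was tested on simulated data.

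All members and same-seed microRNAs were named, at most 6 called microRNAs of each other list, and the 5 most like the guide mean. MiR-450a-5p, as the single one of its list tested, miR-122-5p, miR-1a-3p and the miR-503, miR-351 and miR-542 arms were named after their values were seen. The members and lists were chosen with earlier results of these data known. Sequences and positions came from RefSeq tables of GRCm38.p6. The number of arrays limits the precision. The replicate numbers of the titles were checked for pairing: same-numbered samples correlated at -0.35 to 0.34 and 1 of 4 exceeded 0.1, so they were not treated as pairs.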

Additional observations from a re-analysis of the deposited data

Results flagged for a closer look

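Among 42 groups of 4 values checked for a sample far from the others, 1 stood out, and chance gives about 1 in 20. The within-array log2 difference between miR-15b-5p and miR-322-5p was 0.29 in control 3, against 0.12 in the nearest of the other controls.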

How the results depend on the processing

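Over 22 alternatives, 0 guides passed the test as higher. The number lower, 0 as reported, was 5 with the spike-ins and 5 without scaling, and 1 (miR-15a-5p) with normexp, with the deposited value table and with outlier spots kept. Of all 285 microRNAs tested, 94 were lower with the spike-ins and 104 without scaling. With normexp 8 were lower, and with the deposited value table or outlier spots kept 20 each. The guide median was -0.33 without scaling, -0.29 with the spike-ins and 0.04 with the 75th percentile over all probes. Leaving out each sample in turn gave medians from -0.10 to -0.02 and 0 guides called. With outlier spots kept, miR-497a-5p differed by 0.61, with an adjusted p of 0.50 by limma: 1 outlier-marked spot on Akita 4 read 55794, against a mean of 230.3 for the other spots of its probe. This also turned its difference from miR-15b-5p. Under the 14 alternatives run on pairs, none of the 6 pairs that did not overlap turned its direction. Quantile normalization, which can change differences within an array, was not among these 14. With it, miR-15b-5p differed by -0.01 and miR-16-5p by -0.03, against 0.11 and -0.16 as reported. MiR-15a-5p then differed by -0.21 and miR-322-5p by -0.17, against -0.28 and -0.05 as reported. Several gaps between guides were therefore narrower. The adjusted p says little for the pairs, since at least 9 of 15 must reach the smallest p of 4 against 4 for any to pass.

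Of the cell cycle list, 4 rose and 2 fell as reported. The number that rose was 1 with the spike-ins, without scaling, with the 75th percentile over all probes and with a floor 4 times higher, and 2 with no filter. Of all 285 microRNAs tested, 5 rose with the spike-ins, 5 without scaling, 10 with all probes and 4 with the higher floor. With no filter it was 4 of 1881. The number that fell was 15 with the spike-ins or without scaling, 5 with quantile normalization, 0 with the 75th percentile over all probes, and 1 with median scaling, no filter or the higher floor. Of all 285 microRNAs tested, 94 fell with the spike-ins, 104 without scaling and 26 with quantile normalization. It was 4 with all probes, 16 with median scaling and 5 with the higher floor, and 2 of 1881 with no filter. The cause was not tested. Leaving out single samples gave 2 to 4 that rose and 1 to 2 that fell: 2 rose without control 3, control 4, Akita 1, Akita 3 or Akita 4, and 1 fell without control 2, control 3 or any 1 Akita sample. With the replicate number as a block, although the numbers did not pair the samples, 25 of 285 microRNAs were called (11 higher, 14 lower), 0 guides among them; miR-15a-5p had an adjusted p of 0.19, and of the cell cycle list 1 rose and 0 fell.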
